A study of Mus musculus with 12 samples.

Results

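Mitochondrial fatty acid activation and beta-oxidation was followed through 35 listed genes, which were found by gene symbol among the 49315 genes counted in 12 mouse heart libraries. The genes were taken by name from a list of the pathway, a list made with earlier results of these data known, and all 35 were measured well enough to be tested. The libraries fell into 4 groups of 3, all from female C57BL/6 wild-type mice aged 27 to 29 weeks. Western diet postpartum hearts came from females fed 45% of energy as fat with 17% as sucrose and taken on day 1 after delivery, and control diet postpartum hearts came from females at the same day fed 10% of energy as fat. Western diet nonpregnant and control diet nonpregnant hearts came from females on the same diets that were not pregnant. Each diet was fed for 15 weeks, and the study asked how diet-induced metabolic syndrome bears on the remodelling of the heart in pregnancy.

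Fatty acids are the main fuel of the adult heart. A fatty acid is first joined to coenzyme A, carried over the inner mitochondrial membrane as a carnitine ester, and then shortened in repeated rounds of oxidation, hydration, a further oxidation and cleavage, each of which releases acetyl-CoA. Electrons from the first oxidation pass through electron transfer flavoprotein to the respiratory chain, and malonyl-CoA blocks entry at carnitine palmitoyltransferase. Many genes of the pathway are known targets of the nuclear receptor PPARα, which binds fatty acids, and of the oestrogen-related receptors.

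The library totals were 22754591 to 29492416 counts, and a count of 0 still allows a level of up to 0.102 to 0.132 CPM (3 counts of the total, for counting error only). CPM is a gene's count scaled to a common library size, where each size was corrected by TMM for differences in the make-up of the libraries. The labels do not say that the libraries came from separate animals, so p-values measure the spread between these libraries. The numbers in the sample titles of all postpartum libraries precede those of the nonpregnant ones, so an order of handling, if they hold one, and pregnancy state cannot be told apart. The 8 cardiomyocyte markers were high in all groups, their summed level being 67871 to 69207 CPM in Western diet postpartum, 64978 to 73008 CPM in control diet postpartum, 63884 to 67273 CPM in Western diet nonpregnant and 67695 to 77565 CPM in control diet nonpregnant hearts. Control diet postpartum replicate 3 stood apart through fat tissue genes: Ucp1 had 73.0 CPM there and at most 0.544 CPM in the other 11 libraries, and Adipoq had 19.6 CPM against at most 0.542 CPM. The mitochondrially encoded share of counts was 20.5% to 21.5% in Western diet postpartum and 19.2% to 19.4% in control diet postpartum hearts, and 20.4% to 21.2% in Western diet nonpregnant and 19.8% to 20.2% in control diet nonpregnant hearts. Its part in the differences below was not tested beyond a refit with library sizes that leave these genes out. In RNA from whole heart tissue, a change in the number of cells of a type and a change in RNA per cell cannot be told apart.

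The promoter windows of 4 genes are shown as examples of the sequences at these genes, and none was tied to a difference in level: Hadhb and Hadha encode the subunits of an enzyme and lie head to head, Acsf2 had the largest difference of the 35 in postpartum hearts, and Acadvl and Acadm hold the hormone receptor hexamer AGGTCA. Sequences are from RefSeq on GRCm38.p6, in windows of 250 bases before to 50 bases after the start of a gene, and are written 5′ to 3′ on the strand of the gene. Capitals mark, in the Hadhb window at chr5:30155003-30155302 on the plus strand, the 228 bases that it shares with the window of Hadha, which starts 273 bases away on the opposite strand.
Hadhb: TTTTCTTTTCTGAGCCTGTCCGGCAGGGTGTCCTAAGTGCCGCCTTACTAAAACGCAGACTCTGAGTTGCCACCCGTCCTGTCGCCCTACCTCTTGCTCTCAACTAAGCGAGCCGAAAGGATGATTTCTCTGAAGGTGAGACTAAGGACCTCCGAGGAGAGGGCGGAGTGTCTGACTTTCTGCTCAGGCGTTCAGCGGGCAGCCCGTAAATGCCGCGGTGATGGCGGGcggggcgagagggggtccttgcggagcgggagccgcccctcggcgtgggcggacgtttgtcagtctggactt
The Acsf2 window at chr11:94601737-94602036 on the minus strand holds none of the motifs searched and so has no capitals.
Acsf2: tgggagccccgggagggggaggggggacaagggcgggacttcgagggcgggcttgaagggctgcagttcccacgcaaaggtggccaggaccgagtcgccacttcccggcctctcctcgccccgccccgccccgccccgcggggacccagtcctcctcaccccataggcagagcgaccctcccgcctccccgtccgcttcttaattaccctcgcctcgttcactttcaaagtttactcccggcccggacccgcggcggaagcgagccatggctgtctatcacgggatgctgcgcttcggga
Capitals mark the hexamer in the Acadvl window at chr11:70015379-70015678 on the minus strand, and its reverse complement in the Acadm window at chr3:153944594-153944893, also on the minus strand.
Acadvl: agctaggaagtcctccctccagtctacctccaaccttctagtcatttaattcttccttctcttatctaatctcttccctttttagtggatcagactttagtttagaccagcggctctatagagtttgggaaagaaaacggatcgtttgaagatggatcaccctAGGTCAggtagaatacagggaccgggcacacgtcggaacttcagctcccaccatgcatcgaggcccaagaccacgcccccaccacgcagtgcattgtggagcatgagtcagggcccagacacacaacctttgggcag
Acadm: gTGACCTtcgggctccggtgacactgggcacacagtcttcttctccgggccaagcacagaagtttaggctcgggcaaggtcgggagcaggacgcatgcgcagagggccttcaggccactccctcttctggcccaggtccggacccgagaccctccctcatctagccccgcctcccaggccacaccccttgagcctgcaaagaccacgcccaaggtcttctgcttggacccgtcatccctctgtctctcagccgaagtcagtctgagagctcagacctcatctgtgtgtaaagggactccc

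Of the 35 genes, 30 had at least 1 such window and together they had 35 windows. The search covered both strands. The direct repeat of AGGNCA with 1 base of any kind between its copies, a form of the PPAR site, was in 0 of 35 windows of these genes and in 0.381% of all 32851 windows. TCAAGGTCA, a form of the site of oestrogen-related receptors, was in 1 of 35 windows, that of Acsl6, and in 0.423% of all windows. The hexamer AGGTCA, which lies within TCAAGGTCA and can lie within the direct repeat, was in 6 of 35 windows, or 17.1%, against 16.3% of all windows. The genes with the hexamer were Acadm, Acacb, Echs1, Acsl6, Acadvl and Cpt1a. The windows of these genes had a median GC content of 61.3%, against 52.7% over all windows. No window was listed for Cpt1b, Crat, Acad9, Acaa2 and Decr1.

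Levels per length showed how unevenly the pathway was expressed in these hearts. Over all 12 libraries, Acadl (long-chain acyl-CoA dehydrogenase) had the highest level at 599 CPM per kilobase of annotated exons, followed by Acaa2, the mitochondrial 3-ketoacyl-CoA thiolase, at 582. Etfa, the alpha subunit of electron transfer flavoprotein, followed at 391, Acadvl (very long-chain acyl-CoA dehydrogenase) at 334 and Acadm (medium-chain acyl-CoA dehydrogenase) at 327 CPM per kilobase. In the order of all 35 levels, the ranges over libraries overlapped in 28 of 34 neighbouring pairs. In these pairs the order was not compared library by library and is not settled by the ranges. They did not overlap in 6 pairs: Acaa2 above Etfa, Acsl1 above Echs1, Cpt1b above Acadsb, Acsl5 above Acad9, Acad9 above Acsl4 and Acsl4 above Acad10. Among activating enzymes and transporters the highest was Acss1, the mitochondrial acetyl-CoA synthetase, at 104 CPM per kilobase, and among the carnitine genes it was Cpt2, the inner carnitine palmitoyltransferase, at 107. The lowest were Acad10, a little-studied acyl-CoA dehydrogenase, at 1.45, and the acyl-CoA synthetases Acsl3 at 1.38 and Acsl6 at 1.19 CPM per kilobase. Annotated exons include retained introns, which lowers the level of genes such as Hadha, where they come to 8730 bases.

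**Figure D1:**
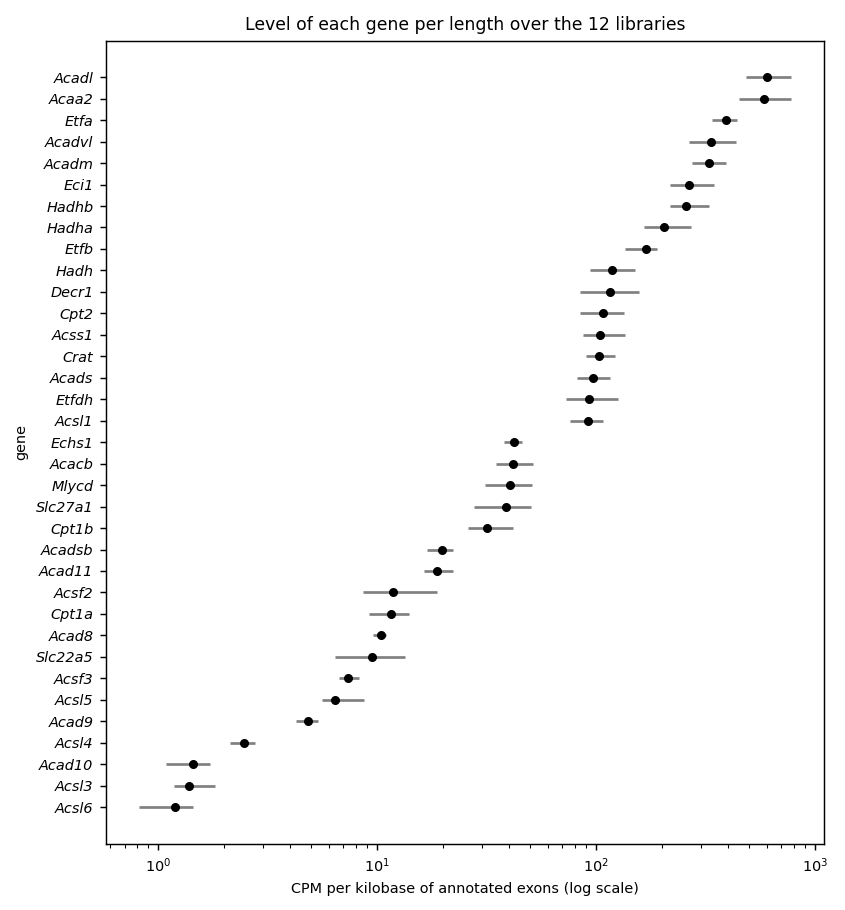
Mean level of each of the 35 genes over the 12 libraries, in CPM per kilobase of annotated exons on a log axis, with lines from the lowest to the highest library. Levels ran from 1.19 for Acsl6 to 599 for Acadl.

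Some counts could be shared with other genes. The exons of Cpt1b overlap those of Chkb on the same strand over 2744 bases, 81.4% of its exon length, and those of Acadvl overlap Dvl2 on the opposite strand over 1151 bases, or 42.9%. Etfb shares 617 exon bases, 53.0% of its exon length, with the predicted gene Gm45233 on the same strand. Gm45233 had 16 counts in all libraries together. Near-identical copies were found for Acad10 (Acad12, 98.8% identity over 579 bases, 32752 counts against 2686 for Acad10), for Slc22a5 (Slc22a21, 98.3% over 831 bases, 290 counts against 8859), for Acsf2 (Gm5540, 99.0% over 1848 bases, 64 counts against 12337) and for Hadhb (Gm13910, 99.8% over 1428 bases, 2936 counts against 521666). Values of Acad10, Cpt1b and Etfb are therefore uncertain, and those of Acadvl may be, as the strand setting is not stated.

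In postpartum hearts the Western diet raised 8 of the 35 genes and lowered none, where 0.879% of all 15476 genes tested were called in either direction, 0.646% higher and 0.233% lower. The 8 were Acsf2 and Slc27a1 of activation and uptake, Mlycd of the control of malonyl-CoA, the dehydrogenase Acadl, and Hadha, Hadhb, Eci1 and Decr1 of the later steps. A gene was called at an adjusted p below 0.05 in edgeR's quasi-likelihood test with Benjamini-Hochberg adjustment over all genes. The median log2 fold change over the 35 genes was 0.32, against -0.00 over all genes, and 29 of the 35 values were positive, where 49.9% of all genes were. In 22 of the 35 genes all Western diet postpartum libraries lay above all control diet postpartum libraries, which held for 9.85% of all genes, and in 0 they lay below, against 9.28%. Summed over the 35 genes, the level was 17078 ± 1591 CPM in Western diet postpartum hearts and 13333 ± 834 CPM in control diet postpartum hearts (SD, n = 3 each). The count of 8 depended on single libraries. It was 5 without Western diet postpartum replicate 1, 17 without replicate 2 and 2 without replicate 3, where 0.52%, 3.11% and 0.209% of all genes were called. It was 3 without control diet postpartum replicate 1 and 3 without replicate 3, the library with fat tissue genes, where 0.502% and 0.471% of all genes were called.

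**Figure D2:**
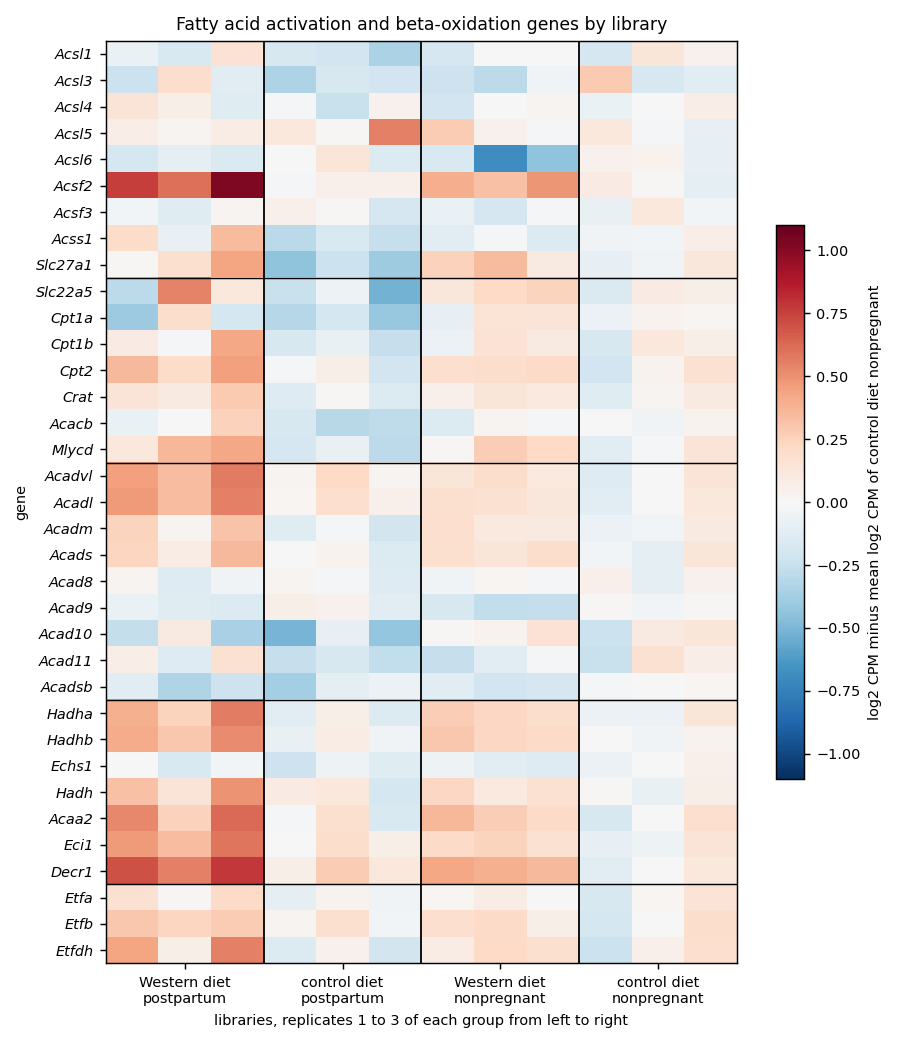
Level of each of the 35 genes in each library as log2 CPM minus the mean log2 CPM of control diet nonpregnant hearts, with genes in the order of their roles from activation (top) to electron transfer (bottom) and lines between roles. The group mean is highest in Western diet postpartum hearts for 22 of the 35 genes, Acsf2, Decr1, Hadha, Hadhb and Acadl among them.

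Activating enzymes and transporters had 2 of 9 genes called higher by diet in postpartum hearts, with a median log2 fold change of 0.20 over the 9. Acsf2, a mitochondrial acyl-CoA synthetase of medium-chain fatty acids, had 53.6, 48.2 and 64.5 CPM in Western diet postpartum hearts, against 31.2, 32.9 and 32.8 CPM in control diet postpartum hearts. Its nonpregnant levels were 41.9, 39.7 and 44.3 CPM on Western diet, against 33.8, 31.9 and 29.5 CPM on control diet. In both states every Western diet library was above every control diet library, and the 6 control diet libraries of both states overlapped. The postpartum log2 fold change of Acsf2 was 0.78 (SE 0.09, edgeR adjusted p = 0.00342), and the call held in 14 of 14 alternatives. Slc27a1, the fatty acid transport protein FATP1, had 221, 246 and 295 CPM in Western diet postpartum hearts, against 161, 185 and 167 CPM in control diet postpartum hearts, which do not overlap. It had 261, 277 and 234 CPM in Western diet nonpregnant hearts, against 206, 213 and 239 CPM in control diet nonpregnant hearts, which do. Its postpartum log2 fold change was 0.57 (SE 0.10, edgeR adjusted p = 0.0172). Control diet postpartum hearts were the lowest of the 4 groups for this gene.

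Acss1, the most abundant of these genes per length, had 505, 413 and 556 CPM in Western diet postpartum hearts, against 357, 391 and 366 CPM in control diet postpartum hearts. The groups did not overlap, and the log2 fold change of 0.40 (SE 0.09) missed the threshold at an edgeR adjusted p of 0.0536. In nonpregnant hearts Acss1 had 401, 435 and 395 CPM on Western diet, against 426, 428 and 459 CPM on control diet, and those groups overlapped. Acsl1, the main long-chain acyl-CoA synthetase of the heart, had a postpartum log2 fold change of 0.22 (SE 0.10, edgeR adjusted p = 0.307). Acsl3, Acsl4 and the malonyl-CoA synthetase gene Acsf3 had values of 0.20, 0.10 and -0.00, and none passed. Acsl5 and Acsl6 had negative values of -0.19 and -0.15, and neither passed. Acsl5 was at 27.4 CPM in control diet postpartum replicate 3 and at 18.9 and 20.2 CPM in the other control diet postpartum libraries, and without that replicate its diet difference was -0.01 on the log2 scale.

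The 7 genes of the carnitine shuttle and of malonyl-CoA control had positive values throughout in postpartum hearts, with a median log2 fold change of 0.35, and 1 of the 7 was called. Mlycd, malonyl-CoA decarboxylase, which removes malonyl-CoA, had 122, 145 and 152 CPM in Western diet postpartum hearts, against 99.0, 107 and 92.1 CPM in control diet postpartum hearts. It had 113, 136 and 131 CPM in Western diet nonpregnant hearts, against 104, 111 and 124 CPM in control diet nonpregnant hearts. The postpartum groups were apart and the nonpregnant groups overlapped. In postpartum hearts the log2 fold change was 0.49 (SE 0.10, edgeR adjusted p = 0.0309). Acacb, acetyl-CoA carboxylase 2, which makes malonyl-CoA at mitochondria, had 393, 413 and 493 CPM in Western diet postpartum hearts, against 367, 335 and 342 CPM in control diet postpartum hearts. The genes for removing and for making malonyl-CoA both had positive values, and that of Acacb, 0.32 (SE 0.08, edgeR adjusted p = 0.0802), did not pass.

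Cpt2 had 299, 269 and 319 CPM in Western diet postpartum hearts, against 229.5, 244 and 202 CPM in control diet postpartum hearts. In nonpregnant hearts it had 264, 267 and 270.0 CPM on Western diet, against 202, 240.1 and 262 CPM on control diet. Western diet libraries were above control diet libraries in both states. That gave a postpartum log2 fold change of 0.40 (SE 0.09, edgeR adjusted p = 0.067), which did not pass. Cpt1b, the muscle form of the outer palmitoyltransferase and the known point of control, had a value of 0.35 (SE 0.11, edgeR adjusted p = 0.143), and Crat, carnitine acetyltransferase, had 0.26 (SE 0.07, edgeR adjusted p = 0.108). For Slc22a5, the carnitine transporter OCTN2, and Cpt1a, the liver form of the palmitoyltransferase, the values were 0.42 (SE 0.16) and 0.20 (SE 0.12), and neither passed. Western diet postpartum replicate 2 had the highest level of both within its group, 41.3 CPM for Slc22a5 and 60.2 CPM for Cpt1a, while the other libraries of that group were at 23.1 and 30.6 CPM for Slc22a5 and at 39.9 and 46.0 CPM for Cpt1a.

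Among the 9 acyl-CoA dehydrogenases, which carry out the first oxidation, 1 was called in postpartum hearts and the median log2 fold change was 0.26. Acadl had 1458, 1332 and 1551 CPM in Western diet postpartum hearts, against 1072, 1201 and 1097 CPM in control diet postpartum hearts. It had 1191, 1183 and 1148 CPM in Western diet nonpregnant hearts, against 971, 1055 and 1144 CPM in control diet nonpregnant hearts. The groups were apart in both states, in the nonpregnant state only by 1148 against 1144 CPM. The postpartum log2 fold change was 0.36 (SE 0.07, edgeR adjusted p = 0.0365). Acadvl had 1075, 998 and 1169 CPM in Western diet postpartum hearts, against 803, 917 and 804 CPM in control diet postpartum hearts, and 866, 902 and 848 CPM in Western diet nonpregnant hearts, against 714, 786 and 872 CPM in control diet nonpregnant hearts. Its postpartum value of 0.36 (SE 0.08) missed the threshold at an edgeR adjusted p of 0.059. Acadm had 0.32 (SE 0.08, edgeR adjusted p = 0.0751) and Acads, the short-chain enzyme, 0.26 (SE 0.08, edgeR adjusted p = 0.14). Dehydrogenases known for other substrates or roles had values near or below 0: Acad8, of valine breakdown, had -0.01, Acadsb, of isoleucine breakdown, -0.05, and Acad9, known as an assembly factor of respiratory complex I, -0.12. Acad10 had 0.17 and Acad11, of the same little-studied branch, 0.27, and none of these 5 passed.

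The later steps held the most calls by role, 4 of 7 genes in postpartum hearts, with a median log2 fold change of 0.42. Hadha encodes the alpha subunit of the mitochondrial trifunctional protein, which holds the hydratase and hydroxyacyl-CoA dehydrogenase activities for long chains. It had 2098, 1896 and 2363 CPM in Western diet postpartum hearts, against 1476, 1673 and 1441 CPM in control diet postpartum hearts. In nonpregnant hearts it had 1932, 1876 and 1828 CPM on Western diet, against 1526, 1531 and 1749 CPM on control diet. Hadhb, the beta subunit with the thiolase, had 2003, 1854 and 2160.0 CPM in Western diet postpartum hearts, against 1431, 1594 and 1470.3 CPM in control diet postpartum hearts. All Western diet libraries were above all control diet libraries in both states for both subunits. In nonpregnant hearts Hadhb had 1852, 1769.7 and 1749 CPM on Western diet, against 1512, 1473 and 1547 CPM on control diet. The postpartum log2 fold changes were 0.47 for Hadha (SE 0.09, edgeR adjusted p = 0.0198) and 0.42 for Hadhb (SE 0.07, edgeR adjusted p = 0.00813). These are the genes whose promoter windows overlap in the sequence above.

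Decr1 and Eci1 encode auxiliary enzymes that let unsaturated fatty acids enter the cycle, a dienoyl-CoA reductase and an enoyl-CoA isomerase. Decr1 had 577, 520.2 and 608 CPM in Western diet postpartum hearts, against 370.5, 430.3 and 384 CPM in control diet postpartum hearts. It had 475, 466 and 453 CPM in Western diet nonpregnant hearts, against 327, 354 and 385 CPM in control diet nonpregnant hearts. Neither pair of groups overlapped. The postpartum log2 fold change of Decr1 was 0.53 (SE 0.08, edgeR adjusted p = 0.00775), and the call held in 14 of 14 alternatives. Eci1 had 347, 317 and 377 CPM in Western diet postpartum hearts, against 250.3, 287 and 262 CPM in control diet postpartum hearts. It had 291, 297 and 282 CPM in Western diet nonpregnant hearts, against 236, 241 and 277 CPM in control diet nonpregnant hearts, again without overlap. Its postpartum log2 fold change was 0.38 (SE 0.08, edgeR adjusted p = 0.0394).

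Acaa2 had 1103, 911 and 1175 CPM in Western diet postpartum hearts, against 754, 863 and 678 CPM in control diet postpartum hearts, and 983, 921 and 884 CPM in Western diet nonpregnant hearts, against 676, 759.5 and 867 CPM in control diet nonpregnant hearts. Its groups were apart in both states. The postpartum value of 0.47 (SE 0.11, edgeR adjusted p = 0.0629) was as large as that of Hadha but had the larger error and did not pass. Hadh, the short-chain hydroxyacyl-CoA dehydrogenase, had 0.32 (SE 0.09, edgeR adjusted p = 0.125), and Echs1, the short-chain hydratase, 0.07 (SE 0.06, edgeR adjusted p = 0.689).

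Of the 3 electron transfer genes, 0 were called in postpartum hearts. Etfa had 785, 705 and 808 CPM in Western diet postpartum hearts, against 649, 720.2 and 682 CPM in control diet postpartum hearts. It had 709, 742 and 696 CPM in Western diet nonpregnant hearts, against 621, 711 and 777 CPM in control diet nonpregnant hearts, and the groups overlapped in both states. The postpartum log2 fold changes were 0.16 (SE 0.08) for Etfa, 0.21 (SE 0.09) for Etfb, the beta subunit, and 0.46 (SE 0.12, edgeR adjusted p = 0.0906) for Etfdh, which passes electrons from the flavoprotein to ubiquinone. For Etfb and Etfdh the postpartum diet groups did not overlap, those of Etfdh only by 672 against 664 CPM, and the nonpregnant groups did.

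Of the 8 calls, those of Acsf2 and Decr1 held with each of the 6 postpartum libraries left out in turn. That of Hadhb was lost without Western diet postpartum replicate 3 (edgeR adjusted p = 0.0583). Those of Slc27a1 and Mlycd were lost without that library and without control diet postpartum replicate 1 or replicate 3, at edgeR adjusted p of 0.0677 to 0.0891 for Slc27a1 and 0.0937 to 0.183 for Mlycd. Those of Acadl, Hadha and Eci1 were lost under these and without Western diet postpartum replicate 1, at edgeR adjusted p of 0.106 to 0.19 for Acadl, 0.0621 to 0.119 for Hadha and 0.103 to 0.197 for Eci1. The log2 fold changes of the 8 genes stayed positive throughout, the lowest being 0.31 for Acadl and the highest 0.87 for Acsf2.

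**Figure D3:**
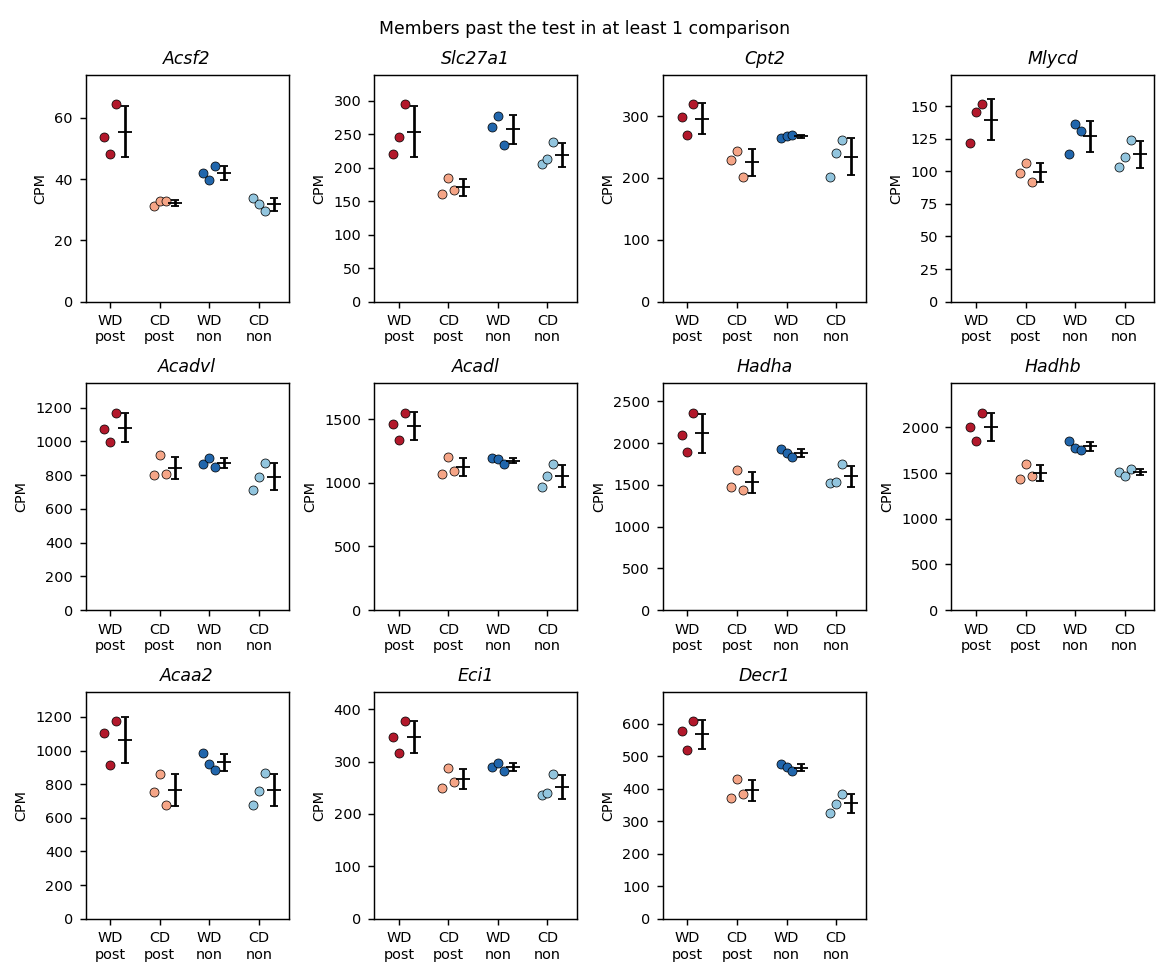
Level in CPM of the 11 genes called in at least 1 comparison, with a point per library and the mean and SD of each group (n = 3), where WD is Western diet, CD control diet, post postpartum and non nonpregnant. Acsf2 lies between 48.2 and 64.5 CPM in Western diet postpartum hearts, above the range of 31.2 to 32.9 CPM in control diet postpartum hearts.

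In nonpregnant hearts 0 of the 35 genes were called by diet in edgeR, where 0.0582% of all genes were called, while limma-voom called 0 and DESeq2 3. At an unadjusted p below 0.05 there were 10 of 35 genes, or 28.6%, against 9.58% of all genes. The median log2 fold change was 0.10, against -0.00 over all genes, and 23 of 35 values were positive, but without control diet nonpregnant replicate 1 the median was 0.05. In 11 genes Western diet libraries lay above all control diet libraries and in 3 below, where 6.92% and 7.84% of all genes did. The highest nonpregnant values were those of Acsf2 at 0.40 (SE 0.09, edgeR adjusted p = 0.185) and Decr1 at 0.39 (SE 0.08, edgeR adjusted p = 0.137). Next were Acaa2 at 0.28 (SE 0.11), Hadhb at 0.24 (SE 0.07) and Slc27a1 at 0.24 (SE 0.10), and none passed. The lowest value was -0.42 (SE 0.12, edgeR adjusted p = 0.28) for Acsl6, which had 11.5, 8.06 and 9.53 CPM in Western diet nonpregnant hearts, against 13.4, 13.3 and 12.2 CPM in control diet nonpregnant hearts. Summed over the 35 genes, the level was 15270.1 ± 198 CPM in Western diet nonpregnant hearts and 13911 ± 973 CPM in control diet nonpregnant hearts (SD, n = 3 each).

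**Figure D4:**
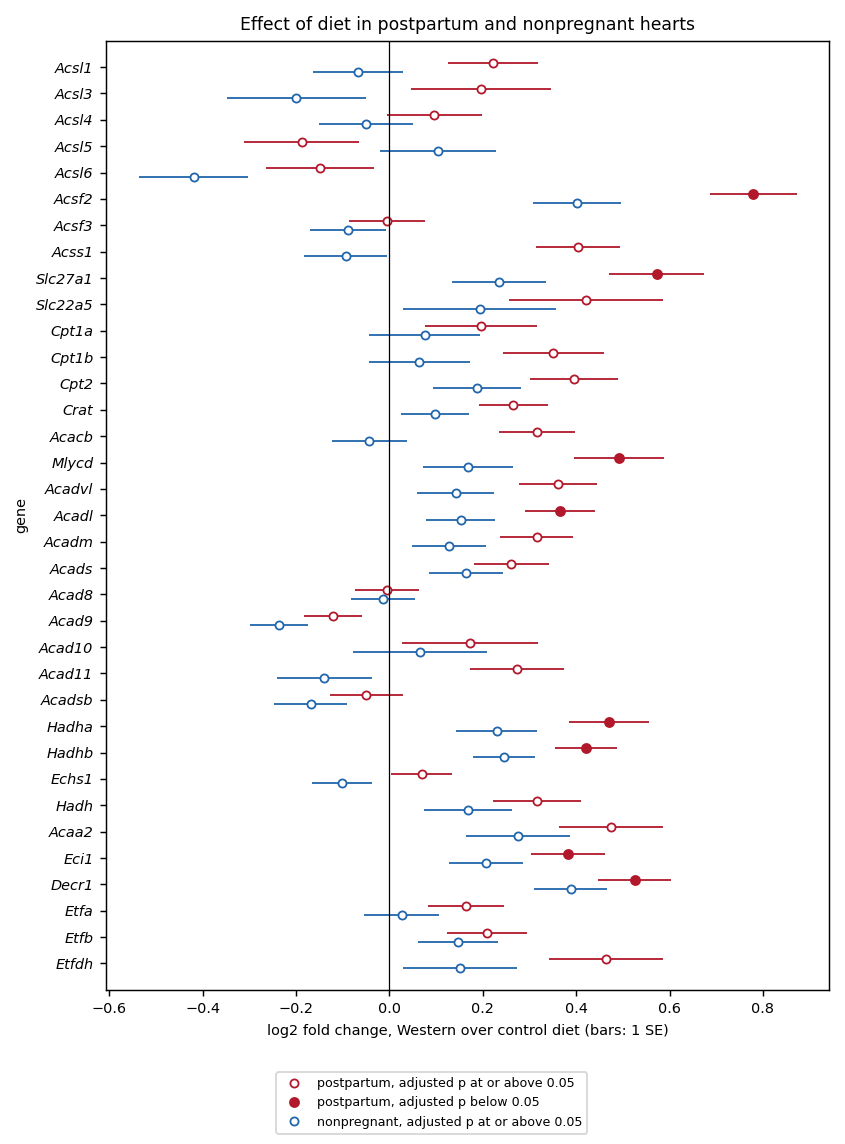
Log2 fold change of Western over control diet for each of the 35 genes in postpartum (red) and nonpregnant (blue) hearts, with bars of 1 SE and filled points where the edgeR adjusted p is below 0.05. The 8 filled points are all postpartum, and Acsf2 at 0.78 is the highest.

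Averaged over both pregnancy states, the Western diet raised 10 of the 35 genes and lowered none, where 1.38% of all genes were called in either direction, 0.989% higher and 0.394% lower. This contrast shares its libraries with both diet comparisons above. The later steps held 5 of the 10 calls: Hadha at 0.35 (SE 0.06, edgeR adjusted p = 0.0126), Hadhb at 0.33 (SE 0.05, edgeR adjusted p = 0.00417), Acaa2 at 0.38 (SE 0.08, edgeR adjusted p = 0.0338), Eci1 at 0.29 (SE 0.06, edgeR adjusted p = 0.0199) and Decr1 at 0.46 (SE 0.06, edgeR adjusted p = 0.0012). The other calls were Acsf2 at 0.59 (SE 0.07, edgeR adjusted p = 0.000706), Slc27a1 at 0.40 (SE 0.07, edgeR adjusted p = 0.0136), Mlycd at 0.33 (SE 0.07, edgeR adjusted p = 0.0327), Acadl at 0.26 (SE 0.05, edgeR adjusted p = 0.0297) and Cpt2 at 0.29 (SE 0.07, edgeR adjusted p = 0.0489). Acadvl fell just outside at 0.25 (SE 0.06, edgeR adjusted p = 0.0528). Calls of Acsf2, Slc27a1, Hadha, Hadhb and Decr1 held with each of the 12 libraries left out in turn. The others were each lost without 4 to 9 of the libraries, at edgeR adjusted p of 0.0501 to 0.13, Cpt2 without 9. The count of 10 was 16 without Western diet postpartum replicate 2 and 5 without replicate 3 of that group. It was also 5 without control diet postpartum replicate 1, and 5 without replicate 2 of either nonpregnant group, and it was 6 without Western diet nonpregnant replicate 3. Over all genes the share was 2.41% in the fit with 16 calls and 0.528% to 0.807% in those with 5 or 6.

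Between postpartum and nonpregnant hearts on the same diet, 0 of the 35 genes were called on either diet in edgeR. On control diet, postpartum over nonpregnant, 0.239% of all genes were called, and edgeR, limma-voom and DESeq2 each called 0 of the 35, with 8 of 35 at an unadjusted p below 0.05, or 22.9%, against 12.5% of all genes. The median log2 fold change was -0.07 and 26 of 35 values were negative. It was -0.11 without control diet postpartum replicate 2 and -0.03 without either replicate 3 of that group or control diet nonpregnant replicate 3. All 7 carnitine genes had negative values there, with a median of -0.19. In 6 genes all control diet postpartum libraries lay below all control diet nonpregnant ones and in 0 above, where 8.96% and 8.12% of all genes did: Acsl3, Acss1, Slc27a1, Cpt1a, Acacb and Acadsb. The value of Slc27a1 was -0.36 (SE 0.10, edgeR adjusted p = 0.176) and that of Cpt1a -0.31 (SE 0.12, edgeR adjusted p = 0.31). Acsl5 had 0.25 (SE 0.12, edgeR adjusted p = 0.438) with the library of fat tissue genes and 0.07 without it.

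On Western diet, postpartum over nonpregnant, 0.588% of all genes were called, and edgeR and limma-voom called 0 of the 35 and DESeq2 4, with 8 of 35 at an unadjusted p below 0.05, or 22.9%, against 14.7% of all genes. The median log2 fold change was 0.12, or 0.07 without Western diet postpartum replicate 3, and 28 of 35 values were positive. In 8 genes all Western diet postpartum libraries lay above all Western diet nonpregnant ones and in 0 below, where 10.1% and 9.51% of all genes did. The values were highest for Acsf2 at 0.40 (SE 0.09, edgeR adjusted p = 0.0707), Acadvl at 0.31 (SE 0.08, edgeR adjusted p = 0.107), Acadl at 0.30 (SE 0.07, edgeR adjusted p = 0.0883) and Decr1 at 0.29 (SE 0.08, edgeR adjusted p = 0.109). Without Western diet postpartum replicate 2, 6 of the 35 genes and 3.0% of all genes were called.

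Averaged over the diets, postpartum over nonpregnant, 1.78% of all genes and 0 of the 35 were called in edgeR and limma-voom, against 3 in DESeq2, with 8 at an unadjusted p below 0.05, or 22.9%, against 17.6% of all genes. The median log2 fold change was 0.01, and it was -0.02 without Western diet postpartum replicate 3. The nearest to the threshold was Decr1 at 0.22 (SE 0.06, edgeR adjusted p = 0.0604). Without Western diet postpartum replicate 2, 4 of the 35 were called higher and 1 lower, where 3.6% of all genes were called.

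Western diet postpartum hearts set against control diet nonpregnant hearts, which differ in both factors, had 8 of the 35 genes called higher and 0 lower, where 2.62% of all genes were called, 1.45% higher and 1.18% lower. The contrast shares its libraries with the comparisons above. Decr1 had 0.68 (SE 0.08, edgeR adjusted p = 0.0017), Acsf2 0.80 (SE 0.09, edgeR adjusted p = 0.0017), Eci1 0.47 (SE 0.08, edgeR adjusted p = 0.011), Hadhb 0.41 (SE 0.07, edgeR adjusted p = 0.00861) and Hadha 0.40 (SE 0.09, edgeR adjusted p = 0.0283). Acaa2 had 0.47 (SE 0.11, edgeR adjusted p = 0.042), and both long-chain dehydrogenases were called, Acadl at 0.45 (SE 0.07, edgeR adjusted p = 0.00956) and Acadvl at 0.45 (SE 0.08, edgeR adjusted p = 0.0155). Slc27a1 and Mlycd had 0.21 (SE 0.10) and 0.31 (SE 0.10) and did not pass. The median over the 35 was 0.17, or 0.10 without Western diet postpartum replicate 3, and 25 values were positive. In 11 genes Western diet postpartum libraries lay above all control diet nonpregnant ones and in 3 below, where 10.3% and 9.9% of all genes did. Calls of Acsf2, Acadl, Hadhb and Decr1 held with each of the 6 libraries left out, and the others were lost when either control diet nonpregnant replicate 2 or Western diet postpartum replicate 3 was absent, and except for Eci1 also without Western diet postpartum replicate 1, at edgeR adjusted p of 0.0502 to 0.154. Acaa2 was also lost without control diet nonpregnant replicate 1. The count of 8 was 5 without Western diet postpartum replicate 1, 14 without replicate 2, 4 without replicate 3 and 4 without control diet nonpregnant replicate 2, where 0.552%, 4.85%, 0.64% and 0.565% of all genes were called.

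Whether the diet difference itself differed between postpartum and nonpregnant hearts was tested by the interaction, the postpartum diet difference minus the nonpregnant one. In edgeR 0 of the 35 genes and 0 of all 15476 genes passed, or 0%, and limma-voom and DESeq2 also called 0 of the 35. At an unadjusted p below 0.05 there were 6 of 35 genes, or 17.1%, against 8.98% of all genes. The difference of the diet effect was positive for 34 of the 35 genes, with a median of 0.19 on the log2 scale, where 50.2% of all genes were positive. The exception was Acsl5 at -0.29, which had its highest level in the library of fat tissue genes. Without that library its postpartum diet difference was -0.01, where its nonpregnant one was 0.10. The highest interaction values were 0.50 (SE 0.13, edgeR adjusted p = 0.357) for Acss1, 0.41 (SE 0.14) for Acad11 and 0.40 (SE 0.21) for Acsl3. Without Western diet postpartum replicate 2, 1 gene of the 35 and 0.337% of all genes were called. A difference in the effect of diet between the states was not shown for any of the genes called in postpartum hearts.

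Within 3 of the 4 groups, most of the genes had their highest level in the same library. The group mean was highest in Western diet postpartum hearts for 22 of the 35 genes and lowest in control diet postpartum hearts for 22. The summed level was 15477 to 18659 CPM in Western diet postpartum libraries, 12705 to 14280 in control diet postpartum, 15047 to 15424 in Western diet nonpregnant and 12975 to 14918 in control diet nonpregnant ones. In Western diet postpartum hearts replicate 3 was the highest of its group for 24 genes and replicate 2 the lowest for 25. In control diet postpartum hearts replicate 2 was the highest for 27 genes, and in control diet nonpregnant hearts replicate 3 was the highest for 24 and replicate 1 the lowest for 25. The Western diet nonpregnant libraries had no such order, being the highest for 12, 14 and 9 genes. The 35 values share their libraries, so a count over them is not a count of separate observations.

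The genes around the pathway are given from lists chosen for their function, but with earlier results of these data known. Their counts are therefore not separate support. Of 15 further genes of fatty acid and acyl-CoA handling, 0 were called by diet in postpartum hearts. In the average over states 3 were called higher. Slc25a20, the carnitine-acylcarnitine carrier, had 0.36 (SE 0.08, edgeR adjusted p = 0.045). Dbi, an acyl-CoA binding protein, had 0.37 (SE 0.07, edgeR adjusted p = 0.0275), and Eci2, an enoyl-CoA isomerase, had 0.29 (SE 0.07, edgeR adjusted p = 0.0447). The list's median in postpartum hearts was 0.10. Over all genes, 0.646% were called higher by diet in postpartum hearts and 0.989% in the average over states. Of 16 tested genes of peroxisomal oxidation, 3 were higher on Western diet in postpartum hearts and 0 lower, with a median of 0.11. Cat, catalase, had 276, 244 and 341 CPM in Western diet postpartum hearts, against 184, 188 and 187 CPM in control diet postpartum hearts (log2 fold change 0.62, SE 0.09, edgeR adjusted p = 0.00775). Pex11a, a peroxisome division factor, had 25.5, 26.1 and 27.5 CPM in Western diet postpartum hearts, against 17.5, 17.5 and 16.4 CPM in control diet postpartum hearts (0.62, SE 0.07, edgeR adjusted p = 0.00189). Pex11a was also called in nonpregnant hearts at 0.46 (SE 0.07, edgeR adjusted p = 0.0424).

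Known targets of PPAR outside the pathway were also called. Of 14 such genes, 7 were higher on Western diet in postpartum hearts, 0 were lower and the median log2 fold change was 0.70. Over all genes, 0.646% were called higher and 0.233% lower there. Acot1, an acyl-CoA thioesterase, had 43.3, 31.0 and 70.2 CPM in Western diet postpartum hearts, against 10.1, 8.56 and 10.1 CPM in control diet postpartum hearts, and the groups were far apart. Its log2 fold change was 2.33 (SE 0.26, edgeR adjusted p = 0.00189), and that of Acot2 was 1.32 (SE 0.18, edgeR adjusted p = 0.00603). These near-identical genes can share reads. Pnpla2, the triglyceride lipase ATGL, had 541, 407 and 628 CPM in Western diet postpartum hearts, against 259, 311 and 280.1 CPM in control diet postpartum hearts (0.89, SE 0.13, edgeR adjusted p = 0.00775).

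**Figure D5:**
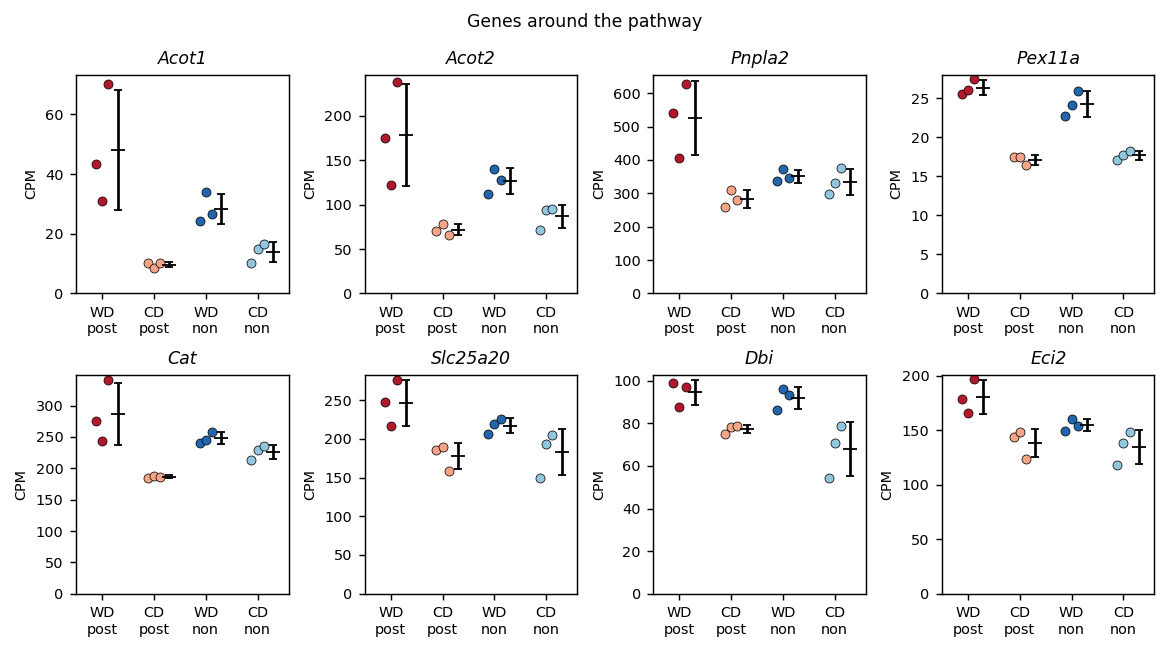
Level in CPM of 8 genes around the pathway, with a point per library and the mean and SD of each group (n = 3), where WD is Western diet, CD control diet, post postpartum and non nonpregnant. Acot1 lies between 31.0 and 70.2 CPM in Western diet postpartum hearts, above the 8.56 to 10.1 CPM of control diet postpartum hearts.

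Of 15 genes for the regulators of the pathway, 0 were called by diet in postpartum hearts, with a median of 0.12. Ppara, which encodes PPARα, had 30.4, 23.6 and 29.8 CPM in Western diet postpartum hearts, against 32.4, 28.9 and 36.0 CPM in control diet postpartum hearts, and these groups overlapped. In Western diet postpartum over control diet nonpregnant hearts 1 of the 15 passed, Pparg at 0.74 (SE 0.13, edgeR adjusted p = 0.012). The 11 genes of malonyl-CoA synthesis and its control by AMP-activated kinase and related factors gave 0 calls in each of the 8 comparisons, with a median of -0.07 for diet in postpartum hearts. The lowest value there was -1.92 for Fasn, fatty acid synthase, which had 209 CPM in the library of fat tissue genes and at most 33.3 CPM in the other 11.

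Markers of other cells also moved with the groups. Of the 8 white adipocyte markers, the lipase gene Lipe was called higher by diet in postpartum hearts at 0.71 (SE 0.13, edgeR adjusted p = 0.0198). Lipe and Fabp4, which endothelial cells also express, made up most of the summed level of 756 to 835 CPM in Western diet postpartum and 515 to 753 CPM in control diet postpartum hearts. The other white adipocyte markers lay at or below 1.51 CPM in all libraries except control diet postpartum replicate 3, which held up to 72.5 CPM (Cfd), and the median of the 6 white adipocyte markers tested was -4.53. Brown adipocyte markers summed to 47.6 to 51.2 CPM in Western diet postpartum and to 37.7 to 140.0 CPM in control diet postpartum hearts. Cidea and Prdm16 made up most of the sums in Western diet postpartum hearts, where Ucp1 was at most 0.531 CPM. Ucp1 had 73.0 CPM in control diet postpartum replicate 3, the library with the highest sum. Endothelial markers summed to 876 to 972 CPM in Western diet postpartum and 851 to 902 CPM in control diet postpartum hearts, fibroblast markers to 855 to 958 against 977 to 1208 CPM, and macrophage markers to 266 to 305 against 286 to 314 CPM, with 0 called by diet in each of these 3 lists in postpartum hearts. In the average over states, the endothelial genes Pecam1 at 0.21 (SE 0.04, edgeR adjusted p = 0.0221) and Tie1 at 0.22 (SE 0.05, edgeR adjusted p = 0.0336) were higher on Western diet, as were Lipe at 0.55 (SE 0.09, edgeR adjusted p = 0.0107) and Fabp4 at 0.38 (SE 0.07, edgeR adjusted p = 0.0196). In Western diet postpartum over control diet nonpregnant hearts, Pecam1, Fabp4, the fibroblast gene Pdgfra and the macrophage gene C1qb were called higher. In control diet postpartum over nonpregnant hearts and in the average over diets, the macrophage genes C1qa, C1qb and Cd68 and the collagen genes Col1a1 and Col1a2 were called higher. The part of these cells in the differences was not tested. Of the 8 cardiomyocyte markers, 0 were called by diet in postpartum hearts, with a median of -0.04. In the average over diets, postpartum over nonpregnant, Myl2 of these 8 was called lower at -0.24 (SE 0.05, edgeR adjusted p = 0.035).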

How the data were processed

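RNA of heart was sequenced in 12 libraries after RNeasy extraction and NEBNext Ultra RNA library preparation, per the labels' protocols. The authors deposited a raw count per gene. The submitters' processing notes name STAR (2.5.2b), featureCounts, Subread (1.5.2) and the genome GRCm38 (mm10). Neither the strand setting nor the annotation release is stated in the sources used here, and overlapping genes on opposite strands may therefore share counts.

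Groups came from the labels, and gene symbols from GENCODE M21 (345 of 49315 identifiers had none). Genes were filtered with filterByExpr (minimum count 10, minimum total 15), which left 15476. All 12 libraries entered an edgeR 4.0.16 quasi-likelihood fit (R 4.3.3) with a mean per group and TMM scaling. The common biological coefficient of variation was 9.62%. The 8 contrasts were tested two-sided, and p-values were adjusted by Benjamini-Hochberg over the 15476 genes, each contrast separately. The procedure was tested on simulated data. SE is the log2 fold change divided by the root of its F statistic.

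The 35 genes and the other lists were chosen with earlier results of these data known. Values in every library are given for the genes called in any comparison and for the most abundant gene of each role. Other lists give up to 4 called genes by smallest p. Further genes of the 35, and Ppara and Fasn, were named after their values were seen. Mmut was not matched and is not used here. Some genes of the other lists are not reported here, though they stayed in all tests and counts. Copies were sought with blastn among GENCODE M21 transcripts. Alternatives were DESeq2 1.42.0, limma-voom (limma 3.58.1), DESeq2 size factors, 2 other filters, the robust option, library sizes without mitochondrial genes, only the groups compared, and each library left out.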

Additional observations from a re-analysis of the deposited data

How the results depend on the processing

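Counts of called genes of the 35 moved with the processing, and the cause was not tested. With no filter on low counts they were 21 for diet in postpartum hearts, 6 (1 lower) for diet in nonpregnant hearts, 20 (1 lower) for diet averaged, 4 (all lower) and 6 (all higher) for the postpartum state on control and on Western diet, 8 (3 lower) for that state averaged, 13 for Western diet postpartum over control diet nonpregnant and 2 for the interaction, where 1.53% to 4.42% of all genes were called. DESeq2 called 17, 3 and 17 (1 lower) for diet in postpartum hearts, in nonpregnant hearts and averaged, where it called 3.0%, 0.637% and 3.07% of all genes, and 4 and 3 for the postpartum state on Western diet and averaged, against 2.84% and 3.85%. A fit of only the groups compared called 3 for diet in postpartum hearts and 5 for Western diet postpartum over control diet nonpregnant. These fits called 0.475% and 0.918% of all genes. With library sizes without mitochondrial genes, 8 were called for diet in postpartum hearts and 11 for diet averaged. The shares of all genes there were 0.911% and 1.4%. With each library left out in turn the counts were 2 to 17 for diet in postpartum hearts, 0 in nonpregnant hearts, 5 to 16 for diet averaged, 0 for the postpartum state on control diet, 0 to 6 on Western diet, 0 to 5 averaged, 4 to 14 for Western diet postpartum over control diet nonpregnant and 0 to 1 for the interaction. For diet averaged, 1 call was lower without control diet postpartum replicate 3, and 1 without Western diet nonpregnant replicate 1. In the same order, the shares of all genes called were 0.209% to 3.11%, 0% to 0.0254%, 0.528% to 2.41% and 0% to 1.3%. From the postpartum state on Western diet on, they were 0% to 3.0%, 0.33% to 3.6%, 0.552% to 4.85% and 0% to 0.337%. Over the called genes, 341 of 414 alternative values stayed past the threshold, 73 did not, and 0 changed sign. With each library left out, the median over the 35 genes ran from 0.23 to 0.34 for diet in postpartum hearts, from 0.05 to 0.15 in nonpregnant hearts, from -0.11 to -0.03 and from 0.07 to 0.15 for the postpartum state on control and Western diet, and from -0.02 to 0.05 for it averaged. No paired analysis was possible because replicate numbers were given in accession order and the titles tie no libraries across groups. With 3 libraries per group and unknown duplicates, the depth limits genes at a few CPM, such as Acsl3 and Acad10.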
